A study of Oncorhynchus mykiss with 14 samples.

Results

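Homeobox transcripts stored in rainbow trout eggs were followed in 14 RNA-Seq libraries through 4 genes: hesx1 (ENSOMYG00000008084), hoxb7a (ENSOMYG00000003792), alx1 (ENSOMYG00000019786) and pbx2 (ENSOMYG00000006078). They are 4 of the 64494 annotated genes counted. The study placed hesx1, hoxb7a and alx1 on its list for survival of gynogenotes in gynogenetic eggs, and pbx2 on its list for survival of controls in control eggs. All of them were therefore selected on the correlation of these same values with survival. The study's thresholds were an absolute Pearson's r above 0.9 and a false discovery rate below 0.05. Their correlation with that survival is described below without a test. The comparison between the egg groups and the correlation with the other survival were not used in the choice and were tested. In the eggs that chose a gene, however, its high r with 1 survival limits its r with the other, so that test is not independent of the choice. The other eggs share the clutches, so the test in them is not fully independent of the choice either.

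Each of 7 rainbow trout females, F1, F2, F3, F4, F6, F7 and F8, all of the Rutki strain and of the same age, gave 1 gynogenetic and 1 control library. For the gynogenetic library, eggs of a clutch were activated with UV-irradiated semen pooled from European grayling males. For the control library, other eggs of the same clutch were inseminated with non-irradiated semen of a single rainbow trout male, so the effects of irradiation and of the sperm species cannot be told apart. The genotype label of the libraries of both groups reads XX, Doubled Haploids. The control eggs, however, were inseminated with non-irradiated semen, and no pressure shock was applied to the control groups. What the label refers to is not stated in the sources used here. Each library was made from 2 to 3 whole eggs taken right after treatment. Only the gynogenetic incubation groups received a hydrostatic pressure shock, and no source used here says that the sequenced eggs had received it. Whether these eggs were taken before or after the shock is not stated. If they had received it, its effect cannot be told apart from those of irradiation and sperm species. In a pool of eggs, fewer eggs with a transcript and less of it per egg cannot be told apart.

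Homeobox genes encode transcription factors that bind DNA through a homeodomain and set position and cell fate in the embryo. The mRNA of a ripe egg is made by the mother, and cleavage-stage embryos of fish translate it while their own genes are still silent. In vertebrates hesx1 encodes a paired-like repressor of the forebrain and pituitary, alx1 encodes a paired-like factor of neural crest and craniofacial mesenchyme, hoxb7a belongs to the Hox genes that pattern the trunk, and pbx2 encodes a TALE-class partner that binds DNA together with Hox and Meis proteins.

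Gynogenetic libraries held 45860801 to 67557305 counts on genes and control libraries held 34535902 to 57014149, and 30919 genes were detected with a mean above 1 normalized count. In every library, between 99.66% and 99.77% of the non-zero counts were even numbers, and 0 of the members' counts were odd. The counts thus moved in steps of 2, although the study's library list calls the same totals read pairs, and the sources used here do not say what produced the steps. The 95% counting intervals (exact Poisson) were computed on steps, that is on counts divided by 2, and would be narrower if each count were taken as independent. They cover counting error only. CCNB1, which encodes the cyclin B1 stored in eggs, was the sole egg marker with a symbol in the gene lists at hand, with a normalized count of 92113 to 158794 in gynogenetic eggs and of 82523 to 139384 in control eggs. Markers of blood, ovarian somatic cells, sperm and white cells had no symbol there and were not examined.

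In RefSeq (USDA_OmykA_1.1), hesx1 lies on chromosome 17 at 83592762 to 83595541, and LOC110494736 ends 142 bases before it. hoxb7a corresponds to LOC110486172 on chromosome 13 at 34150740 to 34156632, with LOC110486171 starting 526 bases after it. alx1 lies on chromosome 2 at 91668397 to 91673730. The span of each of these 3 genes overlaps 0 other RefSeq genes. No RefSeq entry was matched to pbx2, which the study's annotation places on chromosome 3. Salmonids keep many duplicated genes. The deposited files tally reads that map to more than one place apart from the genes, so reads shared by near-identical copies were left out and the level of such a copy may be too low. The study designed a quantitative PCR assay for pbx2, and its primers are shown because they are the only sequences at hand for a member. They mark the amplicon of that assay, whose readout was not used here, and not the whole transcript counted by RNA-Seq:
pbx2 forward primer: tcgccaaacagtgtagcatc
pbx2 reverse primer: gccgtcttcatggcatagat
Each has 20 bases and a GC content of 50%.

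Hesx1 was present in every library, within a 2.11-fold range. In gynogenetic eggs it had 1267 normalized counts in F1, 1627 in F2, 1645 in F3, 1206 in F4, 1294 in F6, 889 in F7 and 940 in F8. In control eggs it had 928 in F1, 1547 in F2, 1348 in F3, 1192 in F4, 779 in F6, 939 in F7 and 1044 in F8. F2 and F3 were the highest in both groups of eggs, while F6 was above 4 of the other females in gynogenetic eggs but the lowest in control eggs. The mean was 1267 ± 296 in gynogenetic and 1111 ± 268 in control eggs (SD, n = 7 each), and the groups overlapped over most of their range.

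Hoxb7a was a rare transcript. In gynogenetic eggs it had 8.24 normalized counts in F1, 23.2 in F2, 34.95 in F3, 22.6 in F6 and 1.57 in F7, and 0 in F4 and F8. In control eggs it had 7.70 in F1, 94.7 in F2, 53.4 in F3, 37.1 in F6, 27.2 in F7 and 10.8 in F8, and 0 in F4. These values rest on at most 19 steps of 2 counts in a gynogenetic and 48 in a control library. At a count of 0, the 95% counting interval reached 7.36 normalized counts in the gynogenetic and 6.69 in the control library of F4. It reached 6.73 in the gynogenetic library of F8. F2, F3 and F6 were the 3 highest females in both groups of eggs. The mean was 12.9 ± 13.97 in gynogenetic and 33.0 ± 32.9 in control eggs (SD, n = 7 each), so the SD was about as large as the mean in each group.

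Alx1 was also rare, with F2, F3 and F6 at the opposite end from their place for hoxb7a. In gynogenetic eggs it had 26.8 normalized counts in F1, 11.6 in F2, 1.84 in F3, 25.9 in F4, 4.24 in F6, 69.0 in F7 and 49.3 in F8. In control eggs it had 55.8 in F1, 1.97 in F2, 20.02 in F3, 49.0 in F4, 66.4 in F7 and 47.7 in F8, and 0 in F6. F2, F3 and F6 were the 3 lowest females in both groups of eggs, and F7 was the highest in both. The mean was 26.96 ± 24.7 in gynogenetic and 34.4 ± 26.8 in control eggs (SD, n = 7 each), from at most 44 steps of 2 counts in a gynogenetic and 29 in a control library.

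**Figure D1:**
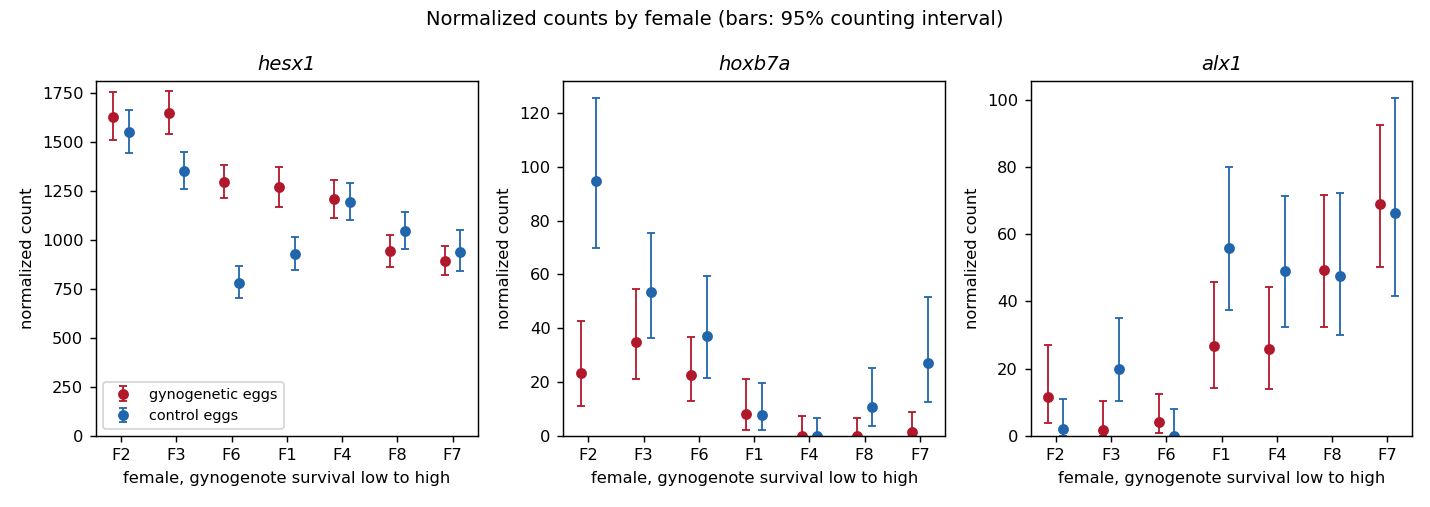
Normalized counts of hesx1, hoxb7a and alx1 (vertical axes, from 0) in the gynogenetic (red, left of each pair) and control (blue, right) library of each female, with females ordered on the horizontal axis by the survival of their gynogenotes at the eyed stage from low to high. Bars are 95% counting intervals of the single library. F2, F3 and F6, at the low end of survival, hold the 3 highest hoxb7a and the 3 lowest alx1 values in both groups of eggs.

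Pbx2 was present in every library, and its values in control eggs lay at separate levels. In gynogenetic eggs it had 4524 normalized counts in F1, 3197 in F2, 3083 in F3, 2695 in F4, 2301 in F6, 4154 in F7 and 4298 in F8. In control eggs it had 3850 in F1, 3873 in F2, 2056 in F3, 2113 in F4, 2183 in F6, 3253 in F7 and 3433 in F8. F3, F4 and F6 were the 3 lowest females in both groups. In control eggs they reached at most 2183, against at least 3253 in the other females, while in gynogenetic eggs F3 at 3083 came close to F2 at 3197. F3, F4 and F6 are the females with the highest survival of controls, on which pbx2 was selected. The split of the control eggs therefore restates the selection. The mean was 3464 ± 862 in gynogenetic and 2966 ± 824 in control eggs (SD, n = 7 each).

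**Figure D2:**
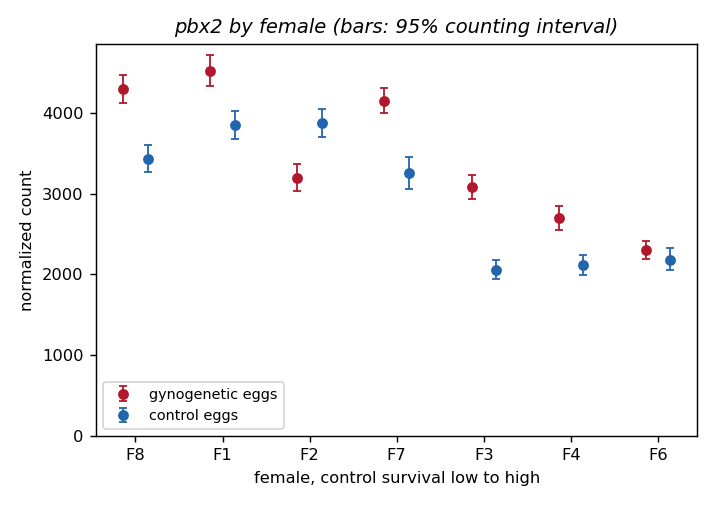
Normalized counts of pbx2 (vertical axis, from 0) in the gynogenetic (red, left of each pair) and control (blue, right) library of each female, with females ordered on the horizontal axis by the survival of their control offspring at the eyed stage from low to high. Bars are 95% counting intervals. F3, F4 and F6 lie at 2056 to 2183 in control eggs, and F2 is the sole female with less pbx2 in gynogenetic than in control eggs. The low place of F3, F4 and F6, at the high end of control survival, restates the selection of pbx2.

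The levels were compared between clutches on the scale of log2(normalized count + 1). The SD between the means of the females was 0.31 for hesx1, 2.07 for hoxb7a, 1.87 for alx1 and 0.37 for pbx2. The SD between the libraries of the same female was 0.25, 1.45, 1.20 and 0.24 for the same genes in that order. Over the 24042 genes with a mean of at least 10 normalized counts, the medians of these measures were 0.61 between females and 0.46 within a female. hesx1 and pbx2 thus lay below the median gene in both measures, and hoxb7a and alx1 above it. These genes were not matched for depth. hoxb7a and alx1 were rare transcripts, for which counting error and the added 1 weigh more on this scale than for hesx1 and pbx2. The SD within a female also includes any difference between gynogenetic and control eggs. The place of a member beside the median gene is therefore not shown to be a trait of the gene. The spread between females exceeded that within a female for each of the 4 genes, but the members were selected for differing between clutches, so this is a description.

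When females were ranked by the mean of their libraries on this log2 scale, few neighbours were separated by more than the SD within a female. For hesx1 the order was F2, F3, F4, F1, F6, F8 and F7, with such a gap only between F3 and F4. For hoxb7a it was F2, F3, F6, F1, F7, F8 and F4, with gaps between F6 and F1 and between F8 and F4. For alx1 it was F7, F8, F1, F4, F3, F2 and F6, with gaps between F4 and F3 and between F2 and F6. For pbx2 it was F1, F8, F7, F2, F3, F4 and F6, with a gap only between F2 and F3. For both hoxb7a and alx1, one such gap separated F2, F3 and F6 from F1, F4, F7 and F8. F2, F3 and F6 are the females with the lowest survival of gynogenotes, on which both genes were selected, so this gap restates the selection. The gap of pbx2 set apart F3, F4 and F6, the females with the highest survival of controls. It likewise restates the selection of pbx2.

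The comparison of gynogenetic with control eggs asks whether the store of a transcript differed between eggs of a clutch after gynogenetic treatment and after normal insemination. None of the 4 genes passed the test. On log2(normalized count + 1), the ratio of gynogenetic to control eggs within a female averaged 0.19 ± 0.32 for hesx1 and 0.23 ± 0.27 for pbx2 (SD, n = 7 each), higher in 5 of 7 and 6 of 7 females. For hoxb7a it averaged -1.46 ± 1.56 (SD, n = 7), lower in 5 females, higher in 1 and equal in F4, where both libraries were at 0. For alx1 it averaged -0.03 ± 1.84 (SD, n = 7), with 4 females higher and 3 lower. Ratios of hoxb7a and alx1 that involve a library at 0 depend on the pseudocount of 1.

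**Figure D3:**
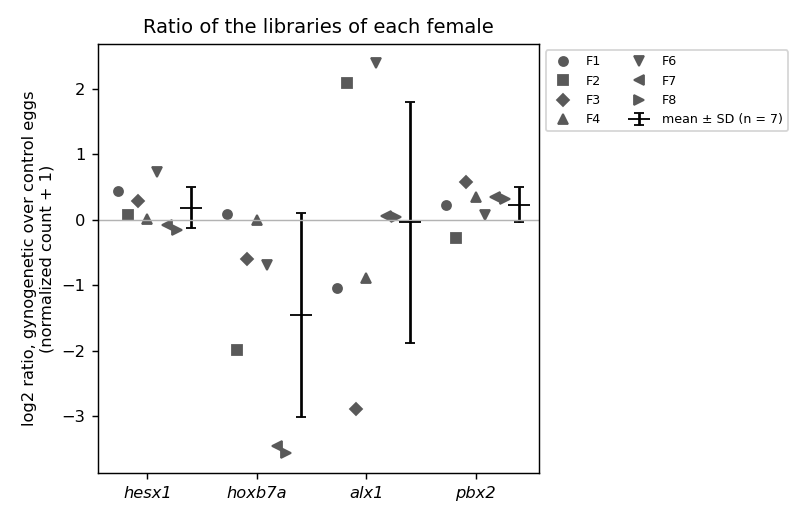
The log2 ratio of gynogenetic to control eggs (vertical axis, normalized count + 1) for each gene and female, with the mean ± SD over 7 females in black. The mean ± SD is -1.46 ± 1.56 for hoxb7a and -0.03 ± 1.84 for alx1, and the ratios of hesx1 and pbx2 lie within 1 unit of 0.

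In edgeR's quasi-likelihood test across all 30919 detected genes, the log2 fold change of gynogenetic over control eggs was 0.18 ± 0.22 for hesx1, -1.35 ± 1.05 for hoxb7a, -0.35 ± 0.87 for alx1 and 0.22 ± 0.21 for pbx2 (± SE), each with an adjusted p of 1. This was 0 of 4 genes called, beside 57 of all genes (0.184%), which were all lower in gynogenetic eggs. The unadjusted p was 0.425 for hesx1, 0.215 for hoxb7a, 0.690 for alx1 and 0.306 for pbx2, so 0 of 4 were under 0.05, beside 1886 of all genes (6.1%). DESeq2 called 0 of 4, beside 245 of all genes (0.792%), and gave hoxb7a no adjusted p, so that gene could not be called there. For 4 genes, counts of 0 lie near such shares. The libraries of a female came from the same clutch, and with the female as a replicate block 1557 genes (5.04%) were called but still 0 of 4 members. In this paired fit hoxb7a had a log2 fold change of -1.68 ± 0.75 (SE), with an unadjusted p of 0.0290 and an adjusted p of 0.250 in edgeR's test. It was the 1 member with an unadjusted p below 0.05 there, beside 4511 of all genes (14.6%). The unadjusted p of hoxb7a in edgeR's test was 0.0121 without F1, 0.0377 without F3, 0.0196 without F4 and 0.0246 without F6. It was 0.104 without F2, 0.0929 without F7 and 0.0722 without F8. The adjusted p of hoxb7a in edgeR's test was from 0.157 to 0.500 when each female was left out. For pbx2 the unadjusted p in edgeR's paired test was 0.102 with all females and 0.0353 without F2 (adjusted p = 0.275). It was from 0.112 to 0.268 when each of the other females was left out. In the paired fit the log2 fold change was 0.23 ± 0.14 for pbx2 (adjusted p = 0.495), 0.18 ± 0.16 for hesx1 (adjusted p = 0.718) and -0.19 ± 0.64 for alx1 (adjusted p = 0.959). The largest of these changes was therefore that of the gene with the fewest reads, and it was not called.

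Counting error alone set a different limit for each gene. For pbx2, with at least 1000 steps of 2 counts in each library, the counting interval of the gynogenetic library lay above that of the control library in F1, F3, F4, F7 and F8 and below it in F2. For hesx1 it lay above in F1, F3 and F6 and the intervals overlapped in the other 4 females. For hoxb7a it lay below in F2 and F7, and for alx1 below in F3, with overlap in the other 5 and 6 females. For pbx2 the libraries of a clutch thus differed by more than counting error in 6 of 7 females. Gynogenetic eggs were higher in 5 of these and lower in 1. How many of all genes did so was not counted, and intervals are narrow at such depth, so this is not shown to be particular to pbx2. A single pool of eggs was sequenced per female and group, so the variation between pools was not measured.

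The study asked whether maternal transcripts follow the survival of the offspring. In gynogenetic eggs, r with the survival of gynogenotes at the eyed stage was -0.965 for hesx1, -0.906 for hoxb7a and 0.933 for alx1 over 7 females, and it is the measure that chose them. With each female left out in turn, r ranged from -0.988 to -0.950, from -0.930 to -0.886 and from 0.906 to 0.963 for the same genes in that order. On this measure 54 of 30707 genes (0.176%) had an absolute r above 0.9, and hoxb7a lay just inside the threshold. Genes just outside it had no symbol, which follows from the gene lists at hand, since they hold only genes that passed the study's thresholds.

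The control eggs of the same females share the clutches, so their correlation with that survival is no independent test. There r was -0.490 for hesx1, -0.692 for hoxb7a and 0.829 for alx1, and 0 of these 3 had an absolute r above 0.9, beside 165 of 30749 genes (0.537%). For hesx1 in control eggs, r was -0.231 without F2 and -0.775 without F6, the female with the lowest hesx1 value of that group. alx1 kept the value closest to that in gynogenetic eggs, with r from 0.754 to 0.914 when single females were left out. On log2(normalized count + 1), r of alx1 was 0.877 in gynogenetic and 0.666 in control eggs.

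Pbx2 in control eggs had an r of -0.966 with the survival of controls, the measure that chose it, and a Spearman's rho of -0.714. In these eggs 229 of 30749 genes (0.745%) had an absolute r above 0.9 with that survival. The females fell into separate levels of pbx2, with F3, F4 and F6 low and at the high end of survival, and within neither level did pbx2 fall steadily with survival. In gynogenetic eggs of the same clutches r was -0.816 and rho -0.929, beside 281 of 30707 genes (0.915%) with an absolute r above 0.9. There r was -0.956 without F2 and -0.744 without F6.

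None of the 4 genes passed the test of correlation with the survival that had not chosen it. In the eggs that chose a gene, this outcome was largely set by the choice. A high r with 1 survival limits r with another survival that does not follow it. The other eggs came from the same clutches, so the tests in them are not fully independent of the choice either. For hesx1 with the survival of controls, r was 0.20 in gynogenetic (permutation p = 0.632, adjusted p = 0.942) and -0.13 in control eggs (permutation p = 0.755, adjusted p = 0.973). For hoxb7a it was 0.32 in gynogenetic (permutation p = 0.478, adjusted p = 0.909) and -0.09 in control eggs (permutation p = 0.860, adjusted p = 0.986). For alx1 it was -0.43 in gynogenetic (permutation p = 0.336, adjusted p = 0.864) and -0.29 in control eggs (permutation p = 0.494, adjusted p = 0.926). These were exact two-sided tests over the 5040 orders of 7 values, adjusted over all genes.

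For pbx2 with the survival of gynogenotes, r was 0.51 in gynogenetic (permutation p = 0.234, adjusted p = 1) and 0.15 in control eggs (permutation p = 0.737, adjusted p = 0.983). Spearman's rho of the members with these survivals lay between -0.571 for alx1 with controls in gynogenetic eggs (permutation p = 0.200, adjusted p = 0.859) and 0.357 for pbx2 with gynogenotes in gynogenetic eggs (permutation p = 0.444, adjusted p = 1). Without the 2 females farthest from the median survival, r in gynogenetic eggs was 0.342 for hesx1, 0.624 for hoxb7a, -0.287 for alx1 and 0.037 for pbx2. In control eggs it was 0.220, 0.201, -0.157 and -0.190 in that order. The sign of r in control eggs was thus not held by hesx1, hoxb7a and pbx2. In none of the 4 pairings of eggs and survival did any gene reach an adjusted p below 0.05 in the permutation test. The study's methods name no permutation test for its false discovery rate, and why its genes passed while none did here was not tested. The number of genes with an unadjusted permutation p below 0.05 was lowest for gynogenetic eggs with the survival of gynogenotes, at 771 of 30707. It was highest for gynogenetic eggs with the survival of controls, at 2160 of 30707. Unrelated values would give a share of about 0.05 at this threshold, which 771 of 30707 does not reach. The lowest adjusted p of any gene in these pairings was 0.508, and the smallest permutation p that the orders allow is 0.000198. At least 122 genes would have to pass together for any to pass, and more if their p lay above that smallest value. The adjusted p over 7 females thus says little of these genes. Their unadjusted p is to be read beside the counts over all genes.

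**Figure D4:**
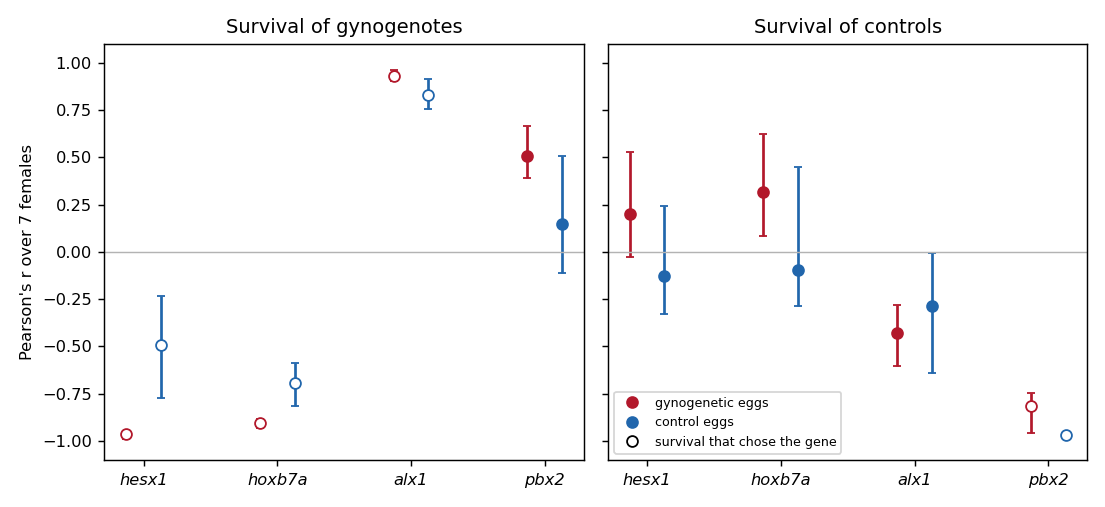
Pearson's r over 7 females (vertical axis) between normalized counts and survival at the eyed stage of gynogenotes (left) and of controls (right), in gynogenetic (red, left of each pair) and control (blue, right) eggs. Bars span the values with each female left out in turn, and open symbols mark the survival that chose the gene, which was not tested. The filled symbols lie between -0.43 and 0.51. In the eggs that chose a gene, its high r with 1 survival limits the filled value.

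The members were compared with each other over the 14 libraries as a description, since libraries share clutches. On the log2 scale r was -0.62 between hoxb7a and alx1, in which F2, F3 and F6 stood at opposite ends. The other 5 pairs had r between -0.32 and 0.36, the highest for alx1 with pbx2. By rank, rho was -0.63 between hoxb7a and alx1 and -0.56 between hesx1 and alx1. hesx1 and hoxb7a, which both fell with rising survival of gynogenotes by their selection, had an r of 0.35.

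Among the 24042 genes with a mean of at least 10 normalized counts, those with the pattern most like each member were ranked by r over the 14 libraries. For pbx2 they were nfyba (r = 0.898), which encodes a subunit of the CCAAT-binding factor NF-Y, ENSOMYG00000014451 (0.888), which had no symbol in the lists at hand, and snrpa (0.886), which encodes a protein of the U1 spliceosome particle. MAPK14, a p38 stress kinase gene, was the most opposite (r = -0.907). nfyba, snrpa and MAPK14 stand on the same list of the study as pbx2, so their likeness follows in part from the way they were selected. nfyba averaged 2097 in gynogenetic and 1935 in control eggs as normalized counts, and MAPK14 averaged 692 in gynogenetic and 827 in control eggs.

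The genes most like the other members had no symbol in the lists at hand. They were ENSOMYG00000075119 for hesx1 (r = 0.893), ENSOMYG00000026922 for hoxb7a (r = 0.875) and ENSOMYG00000032678 for alx1 (r = 0.909). Next in rank were ENSOMYG00000008301 (0.876) and ENSOMYG00000004394 (0.864) for hesx1, ENSOMYG00000000505 (0.864) and ENSOMYG00000050910 (0.860) for hoxb7a, and ENSOMYG00000013444 (0.894) and ENSOMYG00000013122 (0.878) for alx1. The most opposite were ENSOMYG00000041524 for hesx1 (r = -0.902), ENSOMYG00000038027 for hoxb7a (r = -0.893) and ENSOMYG00000007652 for alx1 (r = -0.815). The pattern of alx1 had no opposite as close as those of the other members.

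The annotation at hand named 3 other homeobox genes of the study's lists, which were also selected on r with survival. The gene annotated as hoxd11a-like (ENSOMYG00000024632), a Hox gene of the posterior group, had 113 normalized counts in F1, 284 in F2, 210 in F3, 83.8 in F4, 133 in F6, 23.5 in F7 and 54.7 in F8 of the gynogenetic eggs. In control eggs it had 110 in F1, 290 in F2, 93.4 in F3, 125 in F4, 299 in F6 and 93.63 in F7, and 0 in F8, where 3 steps of 2 counts would be 6.50 normalized counts. Its r with the survival of gynogenotes was -0.926 in gynogenetic and -0.629 in control eggs, the same direction as hoxb7a. The counting intervals of the libraries of a female did not overlap in 4 of 7 females, in either direction, and the share of all genes that did so was not counted.

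The TALE gene pbx1a (ENSOMYG00000030113) and a zeb2-like gene (ENSOMYG00000013334), which encodes a zinc finger homeobox repressor, were at the limit of detection. pbx1a was at 0 in 4 gynogenetic and 3 control libraries, with a highest value of 7.84 in gynogenetic and 3.95 in control eggs. zeb2-like was at 0 in 4 gynogenetic and 2 control libraries, with a highest value of 14.1 in gynogenetic and 5.92 in control eggs. Their r with the survival of controls was -0.907 and -0.933 in control eggs, which chose them, but -0.196 and -0.292 in gynogenetic eggs. In edgeR's test of gynogenetic against control eggs, 0 of these 3 genes were called, with or without the replicate block.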

How the data were processed

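The authors extracted total RNA from pooled eggs, prepared stranded mRNA (polyA) libraries, checked reads with FastQC 0.11.9, trimmed them with Flexbar, mapped them to OmykA_1.1 with STAR 2.7.5c and used HTSeq 1.99.2 with the Ensembl gene models for counting. The deposited files hold raw counts of 64494 genes, and 5 summary lines per library (24.7% to 31.5% without a feature and 0.742% to 0.881% ambiguous) were left out. The sources used here do not give the strand setting. Treatment and replicate number came from the labels, and the female and survival at the eyed stage from the study's tables through the library number. Normalized counts are counts divided by size factors of DESeq2 1.42.0 (R 4.3.3). Genes with a mean above 1 were tested with edgeR 4.0.16 (quasi-likelihood F-test, TMM factors, Benjamini-Hochberg adjusted p below 0.05). edgeR reports no SE. The SE printed with its fold changes is the absolute log2 fold change divided by the square root of the F statistic. Correlations used Pearson's r with exact permutation. Both procedures were tested on simulated data.

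The replicate numbers pair libraries of the same female, and r between deviations from the group mean was 0.492 to 0.657 for the same female, and at most 0.083 for different females.

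The members and lists were chosen with earlier results of these data known. The genes named are the members, the other homeobox genes of the study's lists, and for each member the 3 genes of most similar and the 1 of most opposite pattern (mean of at least 10, pseudocount 1). Of the homeobox lists (Hox, TALE, paired-like, other), 7 genes could be found, because symbols were at hand only for 225 of the study's 274 genes. The neighbours of a member were looked up in RefSeq by name only. Alternatives were other normalizations, filters, scales and tests, the paired fit, survival at the swim-up stage, and each female left out.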

Additional observations from a re-analysis of the deposited data

How the results depend on the processing

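In the test of gynogenetic against control eggs, 0 of 4 members were called under every setting run. DESeq2 gave hoxb7a no adjusted p with or without the block, so it could not be called there. Its unadjusted p in the DESeq2 Wald test with the block was 0.0231, beside 4740 of 30919 genes below 0.05. No member's fold change turned its direction, except that of alx1 in the paired fit without F1 (0.02) or without F3 (0.22). The number of all genes called did depend on the fit. It was 57 without and 1557 with the replicate block, 245 with DESeq2 and 1884 with DESeq2 and the block, and, on counts divided by 2, 57 without and 1828 with the block. The settings on divided counts, DESeq2 with the block and the paired fit without single females were added after the data were seen. Without single females the count ranged from 4 (without F2) to 51 (without F8), with 15 without F1, 16 without F3, 27 without F4, 20 without F6 and 25 without F7. In the paired fit it ranged from 1212 to 1748. The cause of these shifts was not tested.

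A pass would need at least 122 genes passing together over 7 females and at least 853 over 6. For the survival that had not chosen a member, the adjusted p therefore says nothing of stability, and only the values of r were compared. TMM-scaled counts, log2 values and swim-up survival turned the sign of none of them. In control eggs, weak values turned sign under Spearman's rho for pbx2 with gynogenotes (-0.0714) and for hoxb7a with controls (0.107). Without single females r ranged from -0.111 to 0.505 for pbx2 and from -0.287 to 0.449 for hoxb7a in these pairings, and from -0.0282 to 0.531 in gynogenetic and from -0.326 to 0.241 in control eggs for hesx1 with controls. With survival at the swim-up stage, r of the genes chosen by gynogenotes was -0.89 for hesx1, -0.75 for hoxb7a and 0.96 for alx1 in gynogenetic eggs.

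The number of females and the 0 to 48 steps of 2 counts behind hoxb7a and alx1 limit what these data can show, since 1 step is worth 1.41 to 3.02 normalized counts there.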
